A study of Rattus norvegicus with 6 samples.

Results

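Nucleolar ribosome assembly factors are the proteins that process ribosomal RNA (rRNA) and build the ribosomal subunits. Their mRNAs were followed in neurons isolated from the L1-L2 dorsal root ganglia (DRGs), the sensory ganglia that send fibres into perirenal fat. Members were the protein-coding genes whose names matched the Nol, Nop, Utp, Rrp and Imp naming patterns or stood on a short list of further assembly factors, RNA helicases excepted. The rule used names alone and no measured value, but it was chosen with earlier results of these data known. It found 64 of the 25689 genes in the table, under 63 different names, since Nol8 is listed under 2 Ensembl identifiers.

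All 6 samples came from spontaneously hypertensive rats (SHRs), wild type by their labels, and no normotensive strain was sequenced among them. In 3 of them the perirenal adipose tissue had been ablated (PRATA), and the other 3 had a sham operation. Their age is labelled as 6 to 8 weeks, whereas the study's methods give 12 weeks at purchase, and the cells were taken 4 weeks after the operation. The ganglia were dissociated with enzymes, plated, and collected after a brief culture in which glia attach faster than neurons. The values are therefore those of cells after dissociation and culture.

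Ribosome assembly begins in the nucleolus, where RNA polymerase I copies the rRNA genes into a long precursor. Box C/D ribonucleoproteins methylate this precursor and box H/ACA ribonucleoproteins turn chosen uridines into pseudouridines, both guided by small nucleolar RNAs. The small subunit (SSU) processome folds and cuts the part that becomes the small subunit. The PeBoW complex and other large subunit factors do the same for the rest of the precursor, and late factors carry the particles through their final cuts and export. The work takes much of the energy of a growing cell. Neurons keep prominent nucleoli although they do not divide.

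Promoters of 4 members are shown, from 150 bases before to 30 bases after the transcription start. In each of 4 roles, the member with the smallest unadjusted p was taken among those whose promoter held the palindromic E-box CACGTG. They are Fbl (box C/D), Utp4 (SSU processome), Ltv1 (late small subunit) and Rrp8 (large subunit). All 4 stretches also hold the ETS-like letters CCGGAAG, written here on the printed strand as CTTCCGG. Both motifs were frequent among the members. The sequences are RefSeq's on build GRCr8, 5′ to 3′ on the strand of the gene, and capitals mark the matches. Fbl lies on the plus strand at chr1:92597257-92597436, Utp4 on the plus strand at chr19:51702091-51702270, Ltv1 on the minus strand at chr1:9398528-9398707 and Rrp8 on the minus strand at chr1:169500444-169500623.
Fbl: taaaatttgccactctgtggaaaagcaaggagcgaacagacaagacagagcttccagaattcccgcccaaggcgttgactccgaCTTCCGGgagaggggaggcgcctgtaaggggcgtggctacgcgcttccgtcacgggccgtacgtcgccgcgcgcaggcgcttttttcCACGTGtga
Utp4: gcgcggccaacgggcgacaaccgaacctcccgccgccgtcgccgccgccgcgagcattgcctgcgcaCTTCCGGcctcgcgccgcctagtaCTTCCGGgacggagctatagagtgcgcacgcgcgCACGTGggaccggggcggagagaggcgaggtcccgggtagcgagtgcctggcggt
Ltv1: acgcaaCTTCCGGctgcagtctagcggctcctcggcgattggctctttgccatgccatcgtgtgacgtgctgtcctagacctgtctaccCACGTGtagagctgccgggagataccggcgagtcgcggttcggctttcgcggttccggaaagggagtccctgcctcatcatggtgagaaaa
Rrp8: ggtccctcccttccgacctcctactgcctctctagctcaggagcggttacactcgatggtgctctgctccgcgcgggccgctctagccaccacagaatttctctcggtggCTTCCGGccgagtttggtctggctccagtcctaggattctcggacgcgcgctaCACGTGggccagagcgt
The E-box begins 21 bases after the start in Fbl and at position 13 in Rrp8, and it lies 25 bases before the start in Utp4 and 61 bases before it in Ltv1.

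Total counts ran from 5892967 in sham replicate 2 to 15226952 in sham replicate 1. A floor of 3 counts was worth 0.197 to 0.509 counts per 1000000 (CPM), and this floor covers counting error only, since the reads carry no molecular identifiers. PRATA replicate 3 and sham replicate 1 stood apart from the rest: the signal recognition particle RNA gene Rn7sl1 took 5.40% and 5.63% of their counts, against 1.25% to 1.52% in the other samples. They lie in different groups, and the counts of members were repeated with both left out. The labels number the replicates without saying that each is a separate animal, so p-values measure the spread between these samples. Markers of sensory neurons were present in every sample, as were markers of satellite glia, so the isolated cells were a mixture. In such bulk samples, fewer cells of a type and less RNA per cell cannot be told apart.

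Most members had a lower level in the PRATA samples than in the sham samples. Of 64 members, 63 passed the filter on low counts, and 59 of these had a log2 fold change below 0, beside 48% of the 14919 genes tested. At an unadjusted p under 0.05, 45 members were lower (71.4%), beside 10.1% of all genes tested, and 1 member was higher, beside 8.19%. The median log2 fold change was -0.75 over the members, a level of 0.593 times sham, and 0.02 over all genes tested. In 41 members all PRATA values were below all sham values (65.1%), beside 11.2% of all genes. In 1 member all PRATA values were above all sham values, beside 11.6%.

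**Figure D1:**
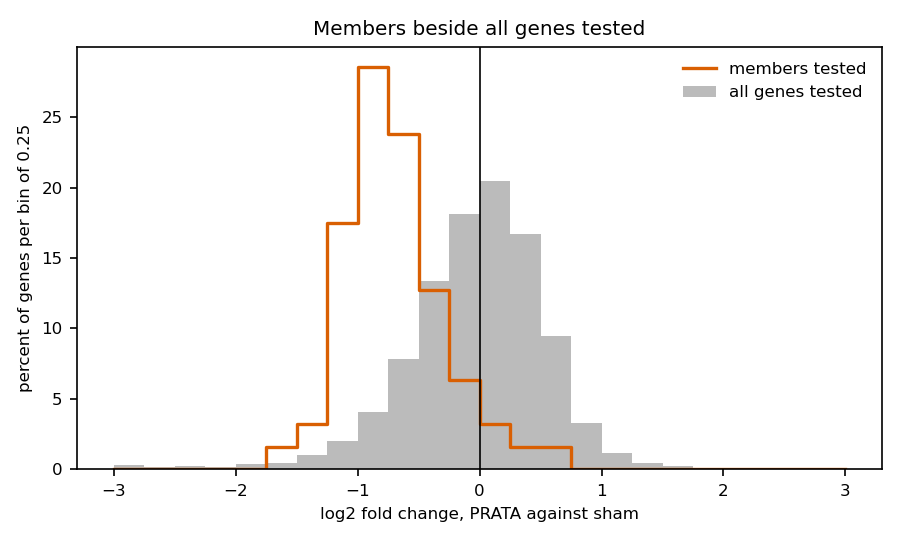
Distribution of log2 fold changes, PRATA against sham, in bins of 0.25, as a percent of the 63 members tested (line) and of the 14919 genes tested (bars). Values beyond the axis are drawn in the end bins. The members centre on a median of -0.75 and all genes on 0.02.

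No member passed an adjusted p under 0.05 by the edgeR quasi-likelihood test with Benjamini-Hochberg adjustment, nor did any other gene (0% of 14919), against 45 lower and 1 higher member at the unadjusted threshold. The adjusted p of the members ran from 0.156 to 0.922 in that edgeR fit. DESeq2 gave 33 members at an adjusted p under 0.05, beside 4.88% of all genes, and voom with quality weights gave 36, beside 7.86%, while limma-trend gave 0. Without sham replicate 2, the edgeR fit itself gave 39 members, beside 4.67% of all genes. Every member called under these 3 settings was lower after PRATA. In what follows, a member called lower or higher passed the unadjusted threshold of the edgeR fit only. Fold changes over 2-fold lower at that threshold were found for 14 members, beside 3.23% of all genes, and over 2-fold higher for 0 members, beside 1.17%. The count of 14 became 25 without sham replicate 2, beside 4.36% of all genes, and 4 without sham replicate 3, beside 2.44%.

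The samples did not contribute equally to this difference. The summed level of all members was 3419, 3464 and 3521 CPM in PRATA replicates 1, 2 and 3 and 6408, 4417 and 6935 CPM in sham replicates 1, 2 and 3. The 3 PRATA samples were close to each other, and sham replicate 2 lay nearest to them. Of the 63 members tested, 40 were highest in sham replicate 3, 16 in sham replicate 1 and 3 in sham replicate 2. Set against sham replicate 2 alone, 51 members were lower in PRATA replicate 1, 50 in PRATA replicate 2 and 49 in PRATA replicate 3. With PRATA replicate 3 and sham replicate 1 both left out, 36 members were lower at an unadjusted p under 0.05, beside 6.9% of all genes, and the median log2 fold change was -0.77.

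**Figure D2:**
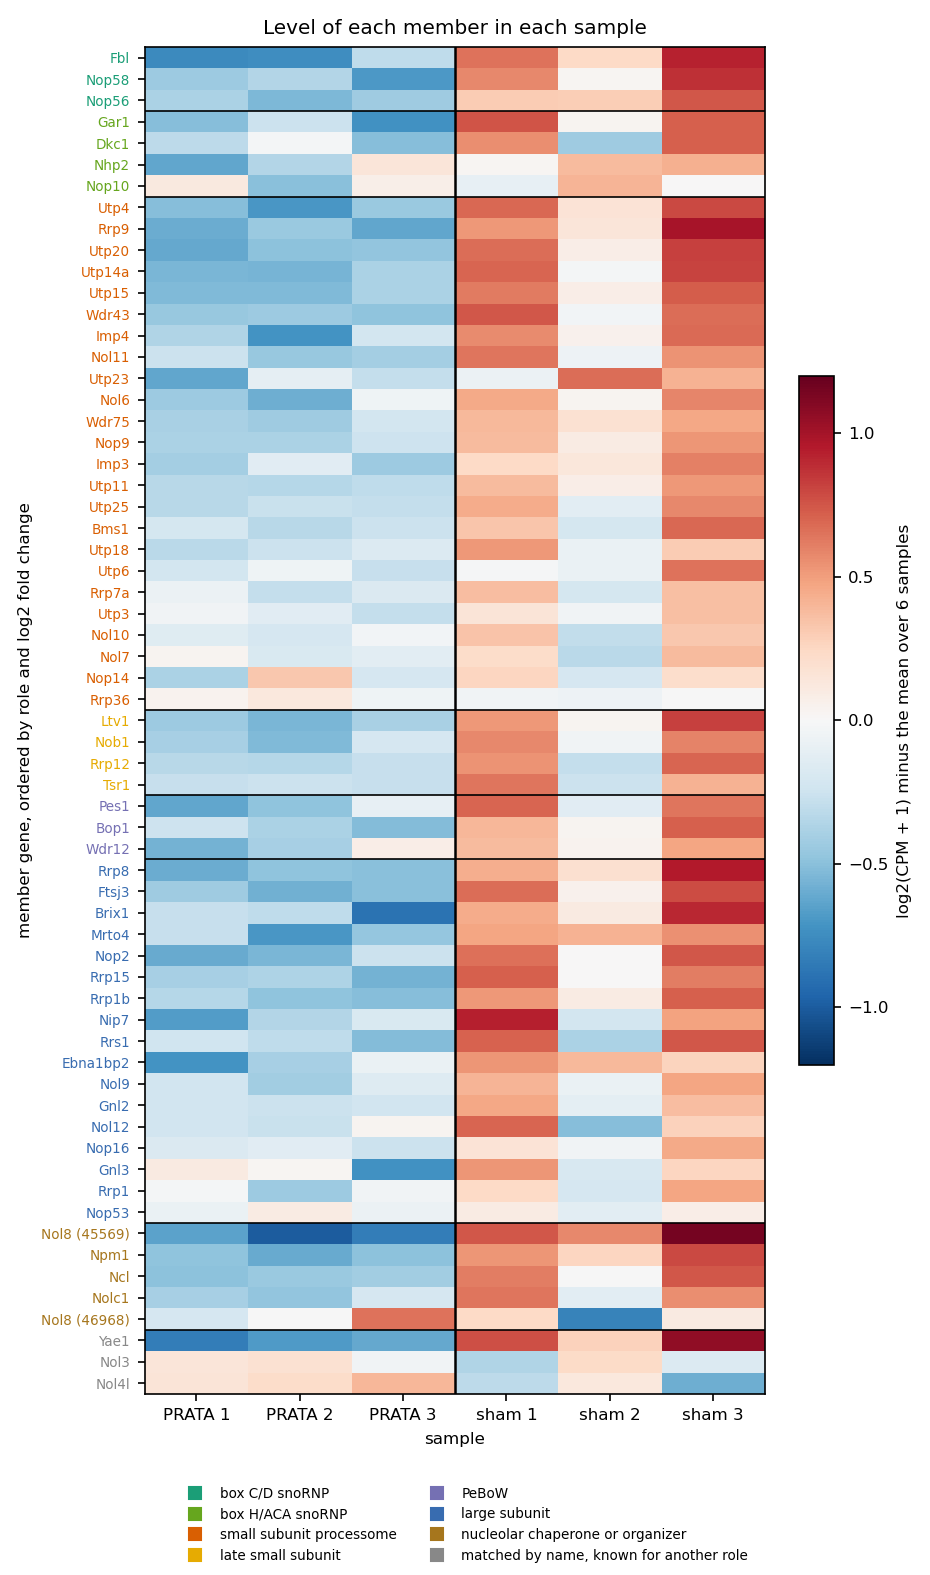
Level of each of the 63 members tested in each sample, as log2(CPM + 1) minus the mean of that gene over the 6 samples (blue lower, red higher), with members grouped by role and the groups divided by the vertical line. Nol8 appears under both identifiers, told apart by their closing digits. The PRATA columns are mostly blue, and the sham replicate 2 column, with a median of 0.01, is paler than those of sham replicates 1 (0.52) and 3 (0.58).

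The 3 box C/D proteins among the members were lower after PRATA, beside 10.1% of all genes tested. Their groups did not overlap, beside 11.2% of all genes with PRATA below sham. Fbl (ENSRNOG00000019229), fibrillarin, the methyltransferase of these particles, was at 17.4, 17.8 and 24.4 CPM after PRATA and at 48.2, 36.1 and 58.6 CPM after sham. The highest PRATA sample was below the lowest sham sample, with a log2 fold change of -1.26 ± 0.24 (SE; edgeR adjusted p = 0.156). Nop58 (ENSRNOG00000016486), one of the paired scaffold proteins that hold fibrillarin on the guide RNA, was at 98.1, 104 and 82.1 CPM against 198, 135 and 244 CPM (log2 fold change -1.02 ± 0.24, edgeR adjusted p = 0.156). Its partner Nop56 (ENSRNOG00000007128) was at 106, 95.5 and 103 CPM against 172, 171 and 233 CPM (log2 fold change -0.92 ± 0.18, edgeR adjusted p = 0.156). In each of these genes sham replicate 3 was the highest sample.

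The box H/ACA proteins were less uniform, with a median log2 fold change of -0.64. At an unadjusted p under 0.05, 1 of 4 was lower, beside 10.1% of all genes tested. Gar1 (ENSRNOG00000061146), which helps the complex release its substrate, was at 10.1, 12.2 and 8.54 CPM after PRATA and at 25.8, 15.1 and 25.03 CPM after sham, without overlap (log2 fold change -1.10 ± 0.26, edgeR adjusted p = 0.156). Dkc1 (ENSRNOG00000055562), dyskerin, the pseudouridine synthase itself, was at 64.9, 79.7 and 56.6 CPM against 120, 59.9 and 134 CPM. The groups overlapped because sham replicate 2 lay among the PRATA samples, and the log2 fold change of -0.64 had a 95% interval from -1.33 to 0.04. Nhp2 (ENSRNOG00000004247), an RNA-binding core protein, was at 2.45, 3.19 and 4.90 CPM against 4.42, 5.93 and 6.14 CPM (log2 fold change -0.63 ± 0.35, edgeR adjusted p = 0.367). Nop10, the smallest core protein, had a log2 fold change of -0.20 with an interval from -0.75 to 0.35.

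The largest role was the SSU processome, with 24 members and a median log2 fold change of -0.70. At an unadjusted p under 0.05, 17 were lower and 0 higher, beside 10.1% and 8.19% of all genes tested. In 18 of the 24 the groups were separate, with PRATA below sham, beside 11.2% of all genes. Utp4 (ENSRNOG00000020333), a subunit of the UTP-A complex that joins the nascent precursor early, was at 15.9, 13.8 and 16.7 CPM after PRATA and at 37.8, 25.9 and 40.6 CPM after sham (log2 fold change -1.17 ± 0.22, edgeR adjusted p = 0.156). Utp20 (ENSRNOG00000005823), a very large scaffold protein, was at 61.3, 66.6 and 67.7 CPM against 151, 99.6 and 167 CPM (log2 fold change -1.09 ± 0.22, edgeR adjusted p = 0.156). Rrp9 (ENSRNOG00000012927), which binds the U3 small nucleolar RNA, was at 28.3, 31.5 and 27.8 CPM against 62.5, 47.8 and 86.6 CPM (log2 fold change -1.17 ± 0.23, edgeR adjusted p = 0.156). In these 3 genes the PRATA samples lay close together and the sham samples were spread, with sham replicate 2 the lowest of them.

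Other UTP-A subunits were also lower, with log2 fold changes of -1.004 for Utp15, -0.96 for Wdr43, -0.81 for Nol11 and -0.72 for Wdr75. The U3-binding pair Imp3 and Imp4 stood at -0.69 and -0.93, and Utp14a, which activates a helicase of the particle, at -1.06. The GTPase Bms1 had a log2 fold change of -0.59. Of the UTP-B subunits, Utp18 was lower (-0.54), and Utp6 did not pass (-0.42, interval from -0.96 to 0.11). The other members of this role that did not pass were Rrp7a, Utp3, Nol10, Nol7, Nop14 and Rrp36. Among them Nop14 had a log2 fold change of -0.16 (interval from -0.69 to 0.38), and Rrp36 one of 0.09 (interval from -0.41 to 0.60).

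**Figure D3:**
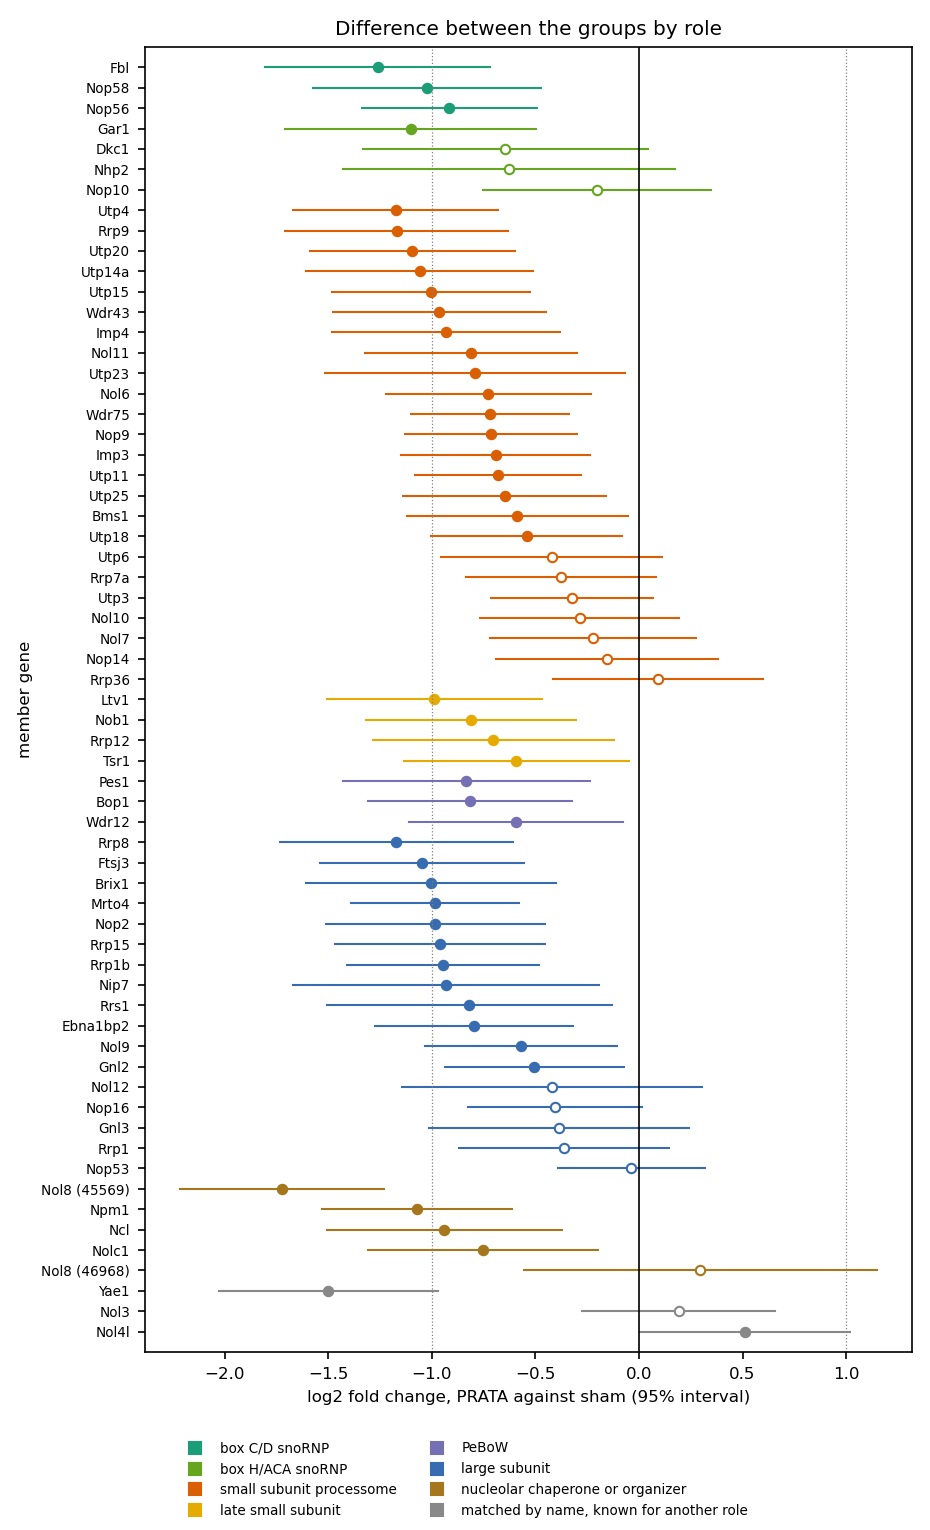
Log2 fold change of each member tested, PRATA against sham, with its 95% interval from the edgeR fit, grouped and coloured by role. Filled points passed an unadjusted p under 0.05, open points did not, and dotted lines mark a 2-fold difference. Points of every assembly role lie mostly left of 0, and 1 filled point, Nol4l, lies right of it.

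All 4 late small subunit factors were lower at an unadjusted p under 0.05, beside 10.1% of all genes tested. The groups were separate in 2 of them, with PRATA below sham, beside 11.2% of all genes. Ltv1 (ENSRNOG00000015217), whose release lets the beak of the small subunit mature, was at 20.1, 18.6 and 20.9 CPM after PRATA and at 40.1, 28.2 and 49.5 CPM after sham (log2 fold change -0.99 ± 0.23, edgeR adjusted p = 0.156). Nob1 (ENSRNOG00000021890), the endonuclease that makes the last cut of the small subunit rRNA, was at 22.1, 20.1 and 25.5 CPM against 44.6, 28.7 and 45.1 CPM (log2 fold change -0.81 ± 0.22, edgeR adjusted p = 0.168). Rrp12 (ENSRNOG00000048495), an export factor, was at 78.0, 77.4 and 81.0 CPM against 143, 80.7 and 161 CPM (log2 fold change -0.70 ± 0.25, edgeR adjusted p = 0.220). In Rrp12, sham replicate 2 fell within the range of the PRATA samples. The same was true of Tsr1, a GTPase-like factor of the late small subunit, which had a log2 fold change of -0.59.

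The 3 subunits of PeBoW, which is needed to process the large subunit part of the precursor, were lower too, beside 10.1% of all genes. Bop1 (ENSRNOG00000021773) was at 29.7, 26.9 and 24.4 CPM after PRATA and at 46.9, 36.2 and 59.0 CPM after sham, without overlap (log2 fold change -0.81 ± 0.22, edgeR adjusted p = 0.168). Pes1 (ENSRNOG00000004515), pescadillo, was at 74.4, 82.1 and 107 CPM against 187, 104 and 179 CPM (log2 fold change -0.83 ± 0.26, edgeR adjusted p = 0.186). Wdr12 (ENSRNOG00000017340) was at 23.6, 26.5 and 37.4 CPM against 46.2, 36.5 and 49.4 CPM (log2 fold change -0.59 ± 0.23, edgeR adjusted p = 0.231). In Pes1 and Wdr12, PRATA replicate 3 lay above sham replicate 2.

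The 17 other large subunit factors had a median log2 fold change of -0.82. At an unadjusted p under 0.05, 12 of the 17 were lower and 0 higher, beside 10.1% and 8.19% of all genes tested. Mrto4 (ENSRNOG00000017979), a placeholder for the stalk protein of the large subunit, was at 21.6, 15.9 and 18.7 CPM after PRATA and at 36.8, 35.4 and 38.8 CPM after sham (log2 fold change -0.99 ± 0.18, edgeR adjusted p = 0.156). Here the 3 sham samples, replicate 2 included, lay close together. Ftsj3 (ENSRNOG00000009857), an rRNA methyltransferase, was at 71.1, 63.8 and 67.3 CPM against 153, 99.6 and 165 CPM (log2 fold change -1.05 ± 0.22, edgeR adjusted p = 0.156). Rrp8 (ENSRNOG00000018766), which methylates an adenosine of the large subunit rRNA, was at 8.65, 9.40 and 9.25 CPM against 18.7, 15.6 and 27.1 CPM (log2 fold change -1.17 ± 0.25, edgeR adjusted p = 0.156).

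Further large subunit factors that were lower included Brix1 (-1.005), the cytosine methyltransferase Nop2 (-0.98), Rrp15 (-0.96), Rrp1b (-0.95) and Nip7 (-0.93). Rrs1, which helps dock the small ribonucleoprotein of the large subunit, stood at -0.82, Ebna1bp2 at -0.80, the polynucleotide kinase Nol9 at -0.57 and the GTPase Gnl2 at -0.51. The 5 that did not pass were Nol12, Nop16, Gnl3, Rrp1 and Nop53. Gnl3, nucleostemin, was at 77.2, 72.7 and 42.9 CPM after PRATA and at 103, 62.3 and 85.9 CPM after sham, so that its groups overlapped. Nop53, which brings the RNA exosome to the precursor, had a log2 fold change of -0.04 with an interval from -0.39 to 0.32.

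The abundant nucleolar proteins followed the same direction. Ncl (ENSRNOG00000018273), nucleolin, which binds the rRNA precursor, was at 688, 714 and 727 CPM after PRATA and at 1488, 966 and 1629 CPM after sham (log2 fold change -0.94 ± 0.25, edgeR adjusted p = 0.168). Npm1 (ENSRNOG00000004616), nucleophosmin, a histone and ribosome chaperone of the outer nucleolus, was at 177, 163 and 176 CPM against 359, 296 and 430 CPM (log2 fold change -1.07 ± 0.20, edgeR adjusted p = 0.156). Npm1 has many processed pseudogenes, and how reads shared with such copies were counted is not given in the sources used here. Nolc1, a chaperone of small nucleolar ribonucleoproteins, had a log2 fold change of -0.75.

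Nol8 had the lowest log2 fold change of the members under one identifier and a value above 0 under the other. Under ENSRNOG00000045569 it was at 17.7, 13.5 and 15.3 CPM after PRATA and at 47.7, 42.3 and 63.6 CPM after sham, without overlap (log2 fold change -1.72 ± 0.21, unadjusted p = 3.85e-05 and adjusted p = 0.156 by edgeR). Under ENSRNOG00000046968 it was at 7.87, 9.16 and 15.02 CPM against 11.05, 4.84 and 10.01 CPM, with overlap (log2 fold change 0.30, interval from -0.56 to 1.15). The table gives no positions for these entries, and how reads were divided between them is not given, so both values are uncertain.

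A further 4 members, matched by name, are known for other work than assembly. Yae1 (ENSRNOG00000013438), which helps load the iron-sulphur cluster of a ribosome recycling factor, was at 15.1, 16.9 and 17.7 CPM after PRATA and at 48.0, 33.7 and 58.9 CPM after sham (log2 fold change -1.50 ± 0.23, edgeR adjusted p = 0.156). Nol4l (ENSRNOG00000010417) was the 1 member higher at an unadjusted p under 0.05, at 29.3, 30.7 and 35.0 CPM against 21.0, 28.7 and 17.2 CPM (log2 fold change 0.51 ± 0.22, edgeR adjusted p = 0.268). Its unadjusted p was 0.0475, and no member was called higher under DESeq2's size factors, scaling by library size alone or DESeq2. Nol3 (ENSRNOG00000015588), an inhibitor of apoptosis, was at 29.2, 29.96 and 25.5 CPM against 20.2, 30.9 and 23.2 CPM (log2 fold change 0.19 ± 0.20, edgeR adjusted p = 0.647). Nol4 did not pass the filter, with 0, 5 and 1 counts after PRATA and 6, 17 and 1 counts after sham. Without these 4, 44 of 60 members were lower and 0 higher, beside 10.1% and 8.19% of all genes tested. The median log2 fold change was then -0.77.

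**Figure D4:**
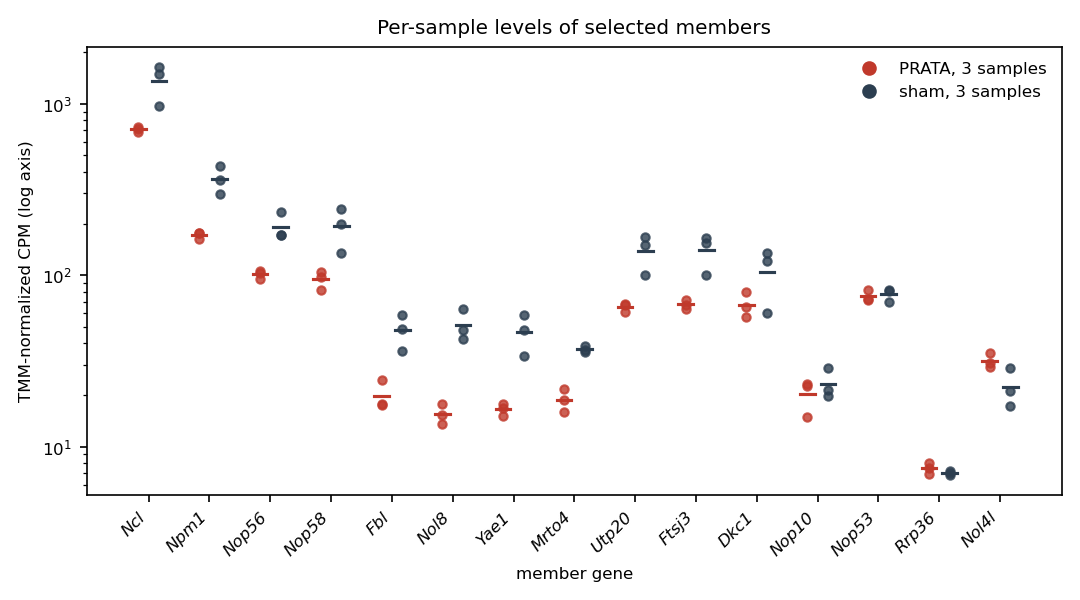
Level of 15 members in each sample, in TMM-normalized CPM on a log axis, with a point per sample and a bar at the mean of each group of 3; Nol8 is drawn for ENSRNOG00000045569. From Ncl to Ftsj3 no PRATA point reaches the sham points, for Dkc1, Nop10, Nop53 and Rrp36 the points overlap, and for Nol4l the PRATA points lie above.

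The proportions of members were examined with 8 log2 ratios of CPM, mostly between partners in a complex, each compared by a two-sided exact permutation test, for which 0.1 is the smallest p possible at this group size. Gar1 relative to Dkc1 was at -2.69, -2.71 and -2.73 after PRATA and at -2.22, -1.99 and -2.42 after sham. The groups were separate, with a difference of -0.50 (exact permutation p = 0.1, adjusted over the 8 ratios 0.533). Gar1 relative to Nop10 had the largest difference of the 8, -0.86, with overlapping groups (exact permutation p = 0.2, adjusted p = 0.533). Fbl relative to Nop56 differed by -0.35 with overlapping groups (exact permutation p = 0.2, adjusted p = 0.533), and Npm1 relative to Ncl by -0.15 (exact permutation p = 0.3, adjusted p = 0.6). The other ratios overlapped between groups as well.

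Other genes of the pathway, outside the naming rule, were taken in 3 lists, of which the genes for rRNA trimming and cleavage had the smallest share called lower. Of a list of 63 further assembly factors, 61 were in the table (Heatr1 and Mdn1 were not matched), with a median log2 fold change of -0.75. At an unadjusted p under 0.05, 44 of these were lower (72.1%) and 0 higher, beside 10.1% and 8.19% of all genes tested. Wdr3, an SSU processome subunit, had a log2 fold change of -1.24, its partner Pwp2 one of -1.10 and Rpf2, which guides a small ribonucleoprotein into the large subunit, one of -0.99. Of 22 genes for rRNA trimming and cleavage, among them the RNA exosome, 5 were lower (22.7%) and 0 higher, with a median of -0.45. The lowest p values there belonged to the exosome subunit Exosc1 (-1.16), the RNase MRP protein Pop1 (-1.07) and the exonuclease Xrn2 (-0.60). Of 8 transcription factors of the rRNA genes, 5 were lower (62.5%) and 0 higher, with a median of -0.64. They included the terminator-binding factor Ttf1 (-0.76), the treacle gene Tcof1 (-0.69) and Taf1d (-0.99), a subunit of the factor that selects the rRNA gene promoter.

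Levels of cell type markers also varied between the samples, and for each cell type the summed markers overlapped between the groups. The summed level of 17 sensory neuron markers was 12997 to 19251 CPM after PRATA and 8912 to 13438 CPM after sham. Their median log2 fold change was 0.46. At an unadjusted p under 0.05, 0 of them were lower and 5 higher, beside 10.1% and 8.19% of all genes tested. For 8 satellite glia markers the sums were 3242 to 6215 CPM against 4358 to 8609 CPM, with a median of -0.53. Of these 8, 1 was lower (12.5%), Sox10, a transcription factor of glia, at -1.63, and 0 were higher. Schwann cell markers summed to 872 to 1527 CPM against 707 to 914 CPM, with 2 of 8 higher and a median of 0.75. Fibroblast markers summed to 484 to 2534 CPM against 1377 to 2522 CPM, with 1 of 7 lower (14.3%) and a median of -0.52. The shares of satellite glia and fibroblast markers called lower lay near the 10.1% of all genes. By direction alone, 0 of the 17 neuron markers and 8 of the 8 satellite glia markers had a log2 fold change below 0. So did 6 of 7 fibroblast and 1 of 8 Schwann cell markers, beside 48% of all genes tested. No macrophage, endothelial or proliferation marker was called in either direction. Macrophage sums were 20.7 to 64.1 CPM against 18.8 to 49.4 CPM, endothelial sums were 53.7 to 105 CPM against 23.9 to 148 CPM, and proliferation sums were 58.7 to 64.1 CPM against 62.4 to 85.6 CPM. No listed marker was at 0 in every sample. The part of these differences in the levels of the assembly factors was not tested.

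In PRATA replicate 2 and sham replicate 2 the summed neuron markers were at 12997 and 13438 CPM, and the satellite glia sums were 6215 and 4358 CPM. Single neuron markers still differed in both directions: the neurofilament gene Nefm was at 2474 and 2994 CPM, the neuronal tubulin gene Tubb3 at 1729 and 1127 CPM, and Pou4f1, a sensory neuron transcription factor, at 47.6 and 24.0 CPM. The members summed to 3464 CPM in that PRATA sample and to 4417 CPM in that sham sample, and 50 of 63 were lower in the PRATA sample, beside 52.2% of all genes tested. This compares 2 single libraries that were not matched in their cell markers. What those marker differences contribute to the levels of the members was not tested.

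Promoter letters were compared because the naming rule did not use them. Of the 63 member names, 55 had a single promoter listed, running from 250 bases before to 50 bases after the start. The palindromic E-box CACGTG, the letters bound by the MYC family and by USF proteins, was in 21 of these 55 (38.2%, Wilson 95% interval 26.5 to 51.4), beside 9.25% of 9758 promoters of genes tested and 6.74% of all 24206 promoters. Within the 250 bases before the start alone, the share was 21.8% of members and 8.09% of genes tested. Of the 22 matches in member promoters, 16 lay between 100 bases before and 50 bases after the start (72.7%). Of the 1017 matches in promoters of genes tested, 58.7% lay there. The ETS-like letters CCGGAAG were in 28 of 55 (50.9%), beside 16.8% of genes tested. Shares were nearer to each other for an NRF1-like motif of the letters GCGC, any 2 bases and GCGC again (16.4% and 12.8%), the GC box GGGCGG (61.8% and 62.6%), the TATA-like letters TATAAA (5.45% and 6.91%) and the YY1-like letters AAGATGG (7.27% and 8.20%). CCAAT was in 25.5% of members and 37.1% of genes tested. Both strands were searched for each motif, and E-box and ETS-like matches cannot share a base, whereas GC box and NRF1-like matches can. A match is a description of the letters and not of a bound site.

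**Figure D5:**
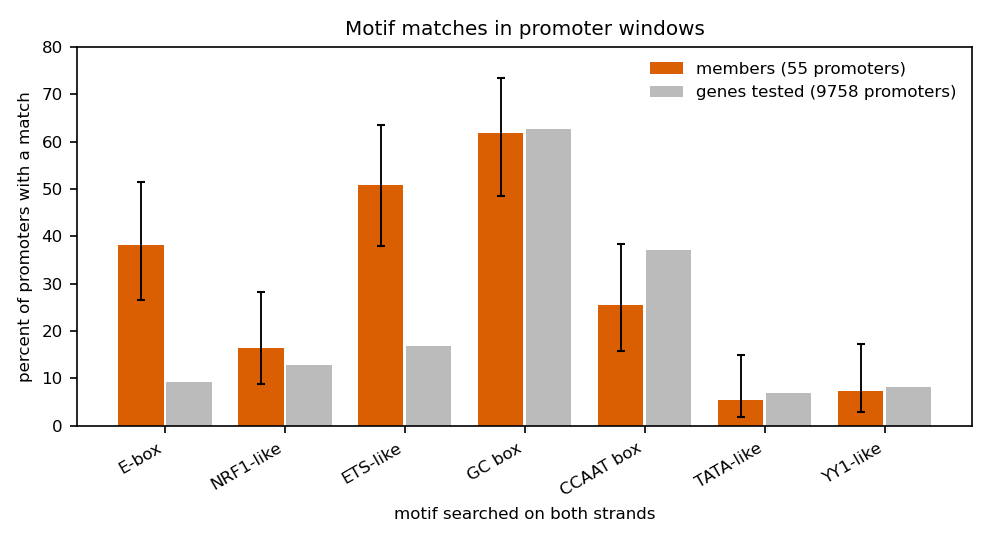
Percent of promoters holding each motif on either strand, for 55 members (Wilson 95% intervals) and 9758 genes tested. The E-box (38.2% and 9.25%) and the ETS-like letters (50.9% and 16.8%) differ most between members and genes tested.

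Members with and without these letters had similar medians. The median log2 fold change was -0.79 over the 21 members with an E-box and -0.71 over 33 members without one. It was -0.74 over the 28 members with the ETS-like letters and -0.76 over 26 members without. Nol8, whose promoter held neither motif, was tested but left out of these medians. Its 2 identifiers had log2 fold changes of -1.72 and 0.30. Of the 55 promoters, 13 held both motifs and 19 held neither. E-boxes were found in members of 7 of the 8 roles, among them 8 of 22 SSU processome promoters, 6 of 15 large subunit promoters and 3 of 4 late small subunit promoters, and in 0 of the 4 promoters of the abundant nucleolar proteins and Nol8.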

How the data were processed

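The authors deposited whole-number counts of reads per gene, without normalization, from ribosome-depleted, stranded total RNA libraries. Their processing notes name STAR 2.7.3a, RSEM and DESeq2, while the study's methods describe HISAT2, StringTie and Cuffdiff. Whether the counts are rounded RSEM estimates, the genome build and the treatment of multi-mapping reads are not given in the sources used here. Genes were filtered with filterByExpr (minimum count 10, minimum total 15), scaled by TMM (factors 0.953 to 1.10) and compared, 3 PRATA with 3 sham samples, by edgeR 4.0.16 in R 4.3.3, with the two-sided quasi-likelihood test and Benjamini-Hochberg adjustment over 14919 genes. DESeq2 1.42.0, limma 3.58.1 and other filters, scalings and sample sets were alternatives, 16 in all for the fits. Motifs were searched in RefSeq promoters (GRCr8) with Python 3.11.15, and matplotlib 3.10.9 drew the figures.

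The members and lists were chosen with earlier results of these data known. Values are given for the core factors (Fbl, Nop56, Nop58, Dkc1, Ncl, Npm1), up to 3 members of each role and 3 genes of each pathway list with the smallest p, members higher at an unadjusted p under 0.05, and the lowest and highest fold change. Other members appear by their fold change. The values of Nop10, Gnl3, Nol4 and the other Nol8 entry were added after they were seen.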

Additional observations from a re-analysis of the deposited data

How the results depend on the processing

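Members lower at an unadjusted p under 0.05 numbered 34 to 53 when 1 sample was left out in turn (beside 5.44% to 14.1% of all genes), 40 with the replicate number as a block (beside 6.08%), 36 in the fit of 4 samples (without PRATA replicate 3 and sham replicate 1, beside 6.9%), and 44 to 51 under other scalings, filters and tools (beside 8.19% to 15.3%). The median log2 fold change of the members stayed between -0.92 and -0.63 over all 16 alternatives. Members at an adjusted p under 0.05 numbered 0 by edgeR, 33 with DESeq2 and 36 with voom and quality weights, and 0 to 39 when 1 sample was left out, the 39 coming without sham replicate 2. Members over 2-fold lower numbered 14, against 22 with voom and quality weights and 4 to 25 when 1 sample was left out. For voom the share of all genes over 2-fold lower is not given. At any fold change it called 15.3% of all genes lower, against 10.1% in the main fit, so the 22 cannot be read as particular to the members. The member called higher (Nol4l) was lost, leaving 0, under DESeq2's size factors, library size alone, at least 10 counts in every sample, DESeq2, the replicate block and the fit of 4 samples, and the count was 0 to 1 when 1 sample was left out. In the list of further assembly factors 0 genes were higher, and 0 to 1 when 1 sample was left out. The E-box share was 21.8% within 250 bases before the start. None of the 24 members given with full statistics changed sign under any alternative. They had the smallest p of their roles in these data, a choice that favours a stable sign. The number of all members with a log2 fold change below 0 moved from 59 to between 57 and 60. Leaving out the filter on low counts moved the median of all genes to -0.17 and that of the members to -0.77. The cause of these changes was not tested.

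The labels do not say whether same-numbered samples were paired. Their deviations from the group means correlated at -0.35, -0.05 and -0.35, which with 3 samples per group cannot decide it. With the replicate block, 40 members were lower, beside 6.08% of all genes, and 0 passed the adjusted threshold. Of the 40, 11 were over 2-fold lower, for which the share of all genes is not given. The standard errors were largest for the Nol8 entry ENSRNOG00000046968 (0.371), Nhp2 (0.348) and Nip7 (0.322), and sham replicate 2 had the fewest counts (5892967).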
